A study of Homo sapiens with 6 samples.

Results

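Nuclear receptors and the coregulators that bind them were followed in MDA-MB-231 cells after transfection of a microRNA precursor. The genes were 37 in number: the vitamin D receptor VDR and its response gene CYP24A1, 30 other nuclear receptor genes, and 5 coregulator genes. They were found on the arrays as every probe whose listed RefSeq transcript belongs to one of them, which gave 63 of the 50599 probes. MDA-MB-231 is an established human breast carcinoma line of the triple-negative type, cultured without sorting. All cells received 30 nM of an RNA precursor by the lipid reagent Lipofectamine, and RNA was taken 72 h later. The precursor was hsa-miR-205-5p in 2 samples, hsa-miR-214-3p in 2 samples and a scrambled RNA as control in 2 samples. The comparisons ask how forced expression of each microRNA changed the transcripts of the cells, and how the effects of both microRNAs differ.

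Nuclear receptors are transcription factors that bind DNA and, in most cases, a small lipophilic ligand such as a vitamin, a steroid, a thyroid hormone or a fatty acid. VDR, the RARs, the thyroid hormone receptors, the PPARs and the LXRs bind DNA as heterodimers with an RXR, while steroid receptors act as homodimers. Ligand binding exchanges corepressors such as NCOR1 for coactivators of the NCOA family. Liganded VDR strongly induces CYP24A1, the hydroxylase that inactivates calcitriol, and VDR is studied in breast cancer cells as a receptor that restrains growth. The study that made these arrays places VDR in a network around the transcription factor WT1, as a gene target of a transfected microRNA. The study's targets were genes both predicted for a microRNA and lower with it on these arrays.

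The transfected RNAs are shown because every comparison is defined by them. Each mature sequence is from RefSeq (GRCh38.p14), written 5′ to 3′, with the seed, bases 2 to 8, in capitals.
hsa-miR-205-5p (gene MIR205, chr1:209432166-209432187, plus strand): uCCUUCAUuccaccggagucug
hsa-miR-214-3p (gene MIR214, chr1:172138816-172138837, minus strand): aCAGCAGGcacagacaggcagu
The seeds CCUUCAU and CAGCAGG differ, so the microRNAs belong to separate seed families. Both are 22 bases long.

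Each sample was hybridised to 1 one-colour Agilent array, and the 6 arrays lay on 1 slide. Values are log2 of the deposited processed signal minus the array's 75th percentile, so 0 is the level of that percentile and 1 unit is a 2-fold change. Between 35.4% and 42.2% of the spots of an array were well above background by the scanner's own flag, and no spot was saturated. The markers VIM, CD44, KRT7, KRT8 and KRT18, which this mesenchymal carcinoma line should express, were well above background on all 6 arrays (5 of 5), with group means of 7.16 to 10.3. Of 4 luminal genes, CDH1, GATA3 and ERBB3 were also above background on all 6 arrays and FOXA1 was not, with group means over the 4 genes of −4.18 to 0.27 in the control and −3.50 to 1.26 with hsa-miR-205-5p. Of 4 leukocyte, endothelial and fibroblast genes, none was above background on all arrays, and their group means lay between −4.42 and −0.44. COL1A1 and DCN were above background on none. With hsa-miR-205-5p the luminal genes CDH1, by 1.96 (adjusted p = 0.008, limma), and ERBB3, by 1.21 (adjusted p = 0.0125, limma), rose against the control, and the endothelial PECAM1 was at least 2.25-fold lower (adjusted p = 0.009, limma). No marker was called with hsa-miR-214-3p, and the part of these shifts in the results below was not tested. In whole-culture RNA, fewer cells with a transcript and less transcript per cell cannot be told apart. The labels do not say that the samples of a group came from separate cultures, so p-values measure the spread between these samples, which may be technical, and the 2 arrays per group limit the precision.

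A gene was tested where the 2 arrays of 1 or more groups showed one of its probes well above background, which held for 26 of the 37 genes, 24 of them by a probe above background on all 6 arrays. Of the 11 others, 10 were above background on no array, with signals between −4.85 and −2.07. These 10 were CYP24A1, the retinoic acid receptor RARB, the thyroid hormone receptor THRB, the clock receptor RORA, the orphan receptor NR2C1, the oestrogen receptors ESR1 and ESR2, the progesterone receptor PGR, the immediate-early receptor NR4A1 and the coactivator NCOA2. The remaining gene, the clock repressor NR1D2, was above background on 1 control array only, at −1.81. A triple-negative tumour lacks the oestrogen and progesterone receptors by definition. No fold or p-value is given for any of the 11 genes, which entered a fit only in the setting without a filter on dim probes.

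A call needed an adjusted p under 0.05 from limma (Benjamini-Hochberg, over every probe that was kept) and a difference of at least 2-fold. With hsa-miR-205-5p, 4 receptor or coregulator genes fell and 1 rose against the scrambled control, 5 of 26, where 12.8% of all 11974 tested genes were called (7.98% lower and 4.78% higher). With hsa-miR-214-3p, 1 fell and 2 rose, 3 of 26, where 3.12% of all genes were called (2.03% lower and 1.09% higher). Directly between the precursors, 4 genes were lower and 4 were higher with hsa-miR-205-5p, 8 of 26, where 20.5% of all genes were called (11.3% lower and 9.18% higher). At an adjusted p under 0.05 from limma with no limit on fold, 4 members were lower and 5 higher with hsa-miR-205-5p (11.3% and 9.8% of all genes), 1 and 2 with hsa-miR-214-3p (2.09% and 1.21%), and 6 and 5 between the precursors (16% and 17.9%). The first 2 comparisons share their control arrays, and each gene's values are therefore given side by side.

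Most members were not called in any comparison. The median difference over the 26 genes was 0.06 with hsa-miR-205-5p and −0.06 with hsa-miR-214-3p, against 0.08 and −0.01 over all genes. Between the precursors it was 0.17, against 0.12 over all genes. With hsa-miR-205-5p, 11 of 26 lay below 0 (45.3% of all genes), and the arrays of both groups did not overlap in 16 (65.2% of all genes). With hsa-miR-214-3p, 15 lay below 0 (51% of all genes) and 15 did not overlap (58.5%). Between the precursors, 10 lay below 0 (43.9%) and 22 did not overlap (80.3%). Among genes above background on all 6 arrays, those without a call spanned −1.06 to 0.87, −0.98 to 0.88 and −0.84 to 0.95 in the 3 comparisons. The forest plot of all tested genes shows these differences with their standard errors.

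**Figure D1:**
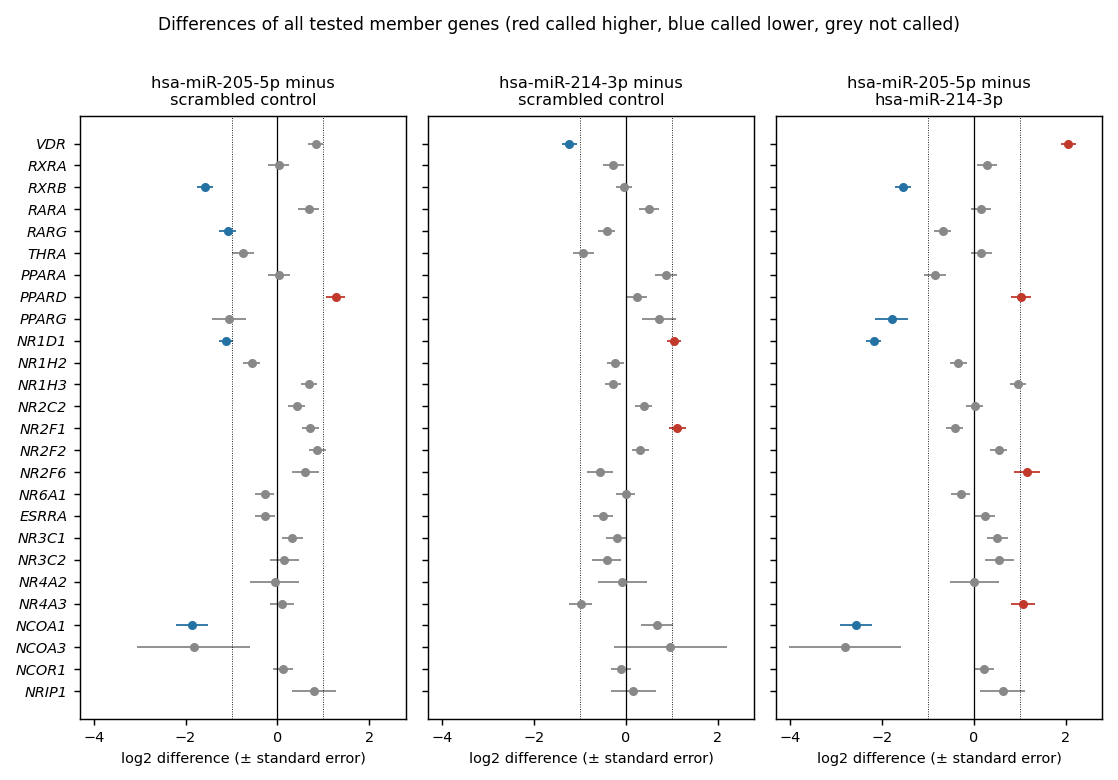
Log2 differences of the 26 tested genes in the 3 comparisons, with limma's standard errors as bars; dotted lines mark 2-fold, red points were called higher and blue points lower. The points called lower with hsa-miR-205-5p are RXRB, RARG, NR1D1 and NCOA1, and VDR stands to the left of the 2-fold line only with hsa-miR-214-3p.

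VDR fell 2.34-fold with hsa-miR-214-3p and was 4.17-fold higher with hsa-miR-205-5p than with hsa-miR-214-3p. The study already lists VDR as a gene target of hsa-miR-214-3p from these same arrays, so this fall is no separate evidence for that. VDR had 1 probe on the array. Its level was 1.54 and 1.38 on the hsa-miR-205-5p arrays, −0.61 and −0.59 on the hsa-miR-214-3p arrays, and 0.53 and 0.72 on the control arrays. The 3 groups did not overlap, with the control between the precursors. Against the control the log2 difference was −1.22 (SE 0.16, adjusted p = 0.037, limma) with hsa-miR-214-3p. With hsa-miR-205-5p it was 0.84 (SE 0.16, adjusted p = 0.0262, limma), which is 1.79-fold and stayed under the 2-fold limit, and it was 0.45 when arrays were scaled to their median. The direct difference between the precursors was 2.06 (SE 0.16, adjusted p = 0.00383, limma). The fall with hsa-miR-214-3p lost its call without any 1 of both hsa-miR-205-5p arrays, both hsa-miR-214-3p arrays or control replicate 1, at differences of −1.32 to −1.21, and kept it without control replicate 2 at −1.13. Between the precursors the call held without each array in turn (1.98 to 2.14) and was lost only under normexp background correction, which gave 0.95.

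CYP24A1, the gene that active VDR induces most, gave no measurable signal. Its brighter probe read −3.81 and −3.15 with hsa-miR-205-5p, −2.78 and −3.81 with hsa-miR-214-3p, and −3.09 and −2.47 in the control. A second probe read −3.52 and −3.71, −2.42 and −4.15, and −3.84 and −3.79 on the same arrays. None of these 12 readings was well above background, so no fold is given. Both hsa-miR-205-5p readings lay below the control readings at the brighter probe and above them at the second.

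Of 22 genes of vitamin D supply and response, 13 were tested, and 1 fell and 2 rose with hsa-miR-205-5p while 1 rose with hsa-miR-214-3p. Between the precursors 3 were lower and 1 was higher with hsa-miR-205-5p. Over all 143 genes listed for vitamin D and the other pathways below, 88 were tested, and 20.5%, 4.55% and 23.9% of these were called in the 3 comparisons, against 12.8%, 3.12% and 20.5% of all genes. These shares include genes tested only through the group in which they read highest. With probes above background on all 6 arrays 11, 3 and 13 of 76 were called, with no share of all genes taken under that filter. CD14, a monocyte co-receptor induced by calcitriol, rose by 1.14 (SE 0.22, adjusted p = 0.0243, limma) with hsa-miR-205-5p, and G0S2, an inhibitor of fat breakdown, rose by 1.41 (SE 0.20, adjusted p = 0.0127, limma). Alternative settings brought the rise of CD14 down to as little as 0.73, and 6 of 15 lost its call. G0S2 was also 2.09 higher with hsa-miR-205-5p than with hsa-miR-214-3p (adjusted p = 0.00401, limma). IGFBP3, which binds insulin-like growth factors, read 1.43 and 1.44 with hsa-miR-205-5p, 3.54 and 3.51 with hsa-miR-214-3p, and 1.13 and 1.58 in the control. Its hsa-miR-214-3p arrays stood above all others, by 2.17 against the control (SE 0.20, adjusted p = 0.0258, limma). Without 1 array this difference was 1.95 to 2.39, and the call was kept only without control replicate 2. VDR fell and IGFBP3 rose on the same hsa-miR-214-3p arrays.

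Some pathway genes were not well above background in 1 group, so their folds are bounds, with the dim group set to the lowest signal that counts as above background or its own reading where that is higher. Of those below, STRA6, CIART, ABCG1, CRISPLD2, NCOA3 and the dimmer THRA probe, like PECAM1 above, were kept only through the group in which they read highest, so a difference had to appear and their counts and p-values are no support for one. These pathway genes were named after their values were seen, as were PER2, CIART, MED1 and KDM1A below. CYP27B1, the enzyme that makes calcitriol, was above background on all arrays of the control and of hsa-miR-214-3p and on neither array of hsa-miR-205-5p. It was at least 1.25-fold lower with hsa-miR-205-5p than in the control (adjusted p = 0.0143, limma) and at least 1.49-fold lower than with hsa-miR-214-3p (adjusted p = 0.00683, limma). Under normexp its log2 differences were −0.13 and −0.31, and neither was called.

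**Figure D2:**
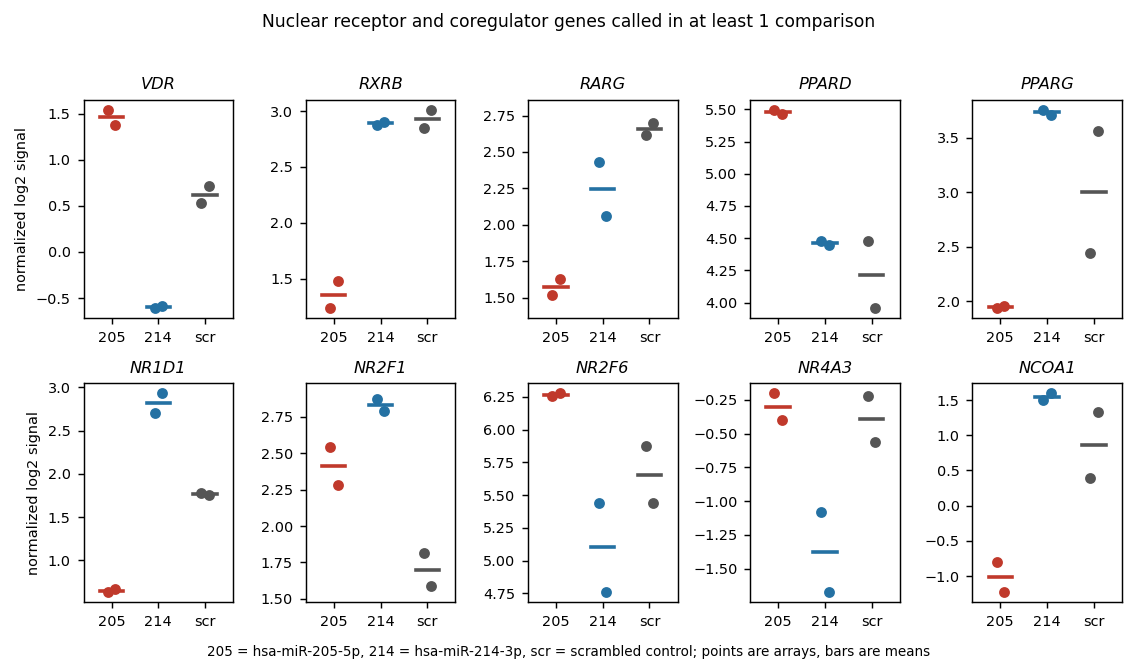
Normalized log2 signal (log2 of processed signal minus the array's 75th percentile) of the 10 receptor and coregulator genes called in at least 1 comparison; each point is an array, each bar a group mean of 2 arrays, and each panel has its own vertical scale. VDR and NR1D1 show all 3 groups apart in opposite orders, while RXRB and NCOA1 are low only on the hsa-miR-205-5p arrays.

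Among the retinoid receptors, RXRB and RARG fell with hsa-miR-205-5p. RXRB encodes 1 of the shared heterodimer partners, and its level was 1.23 and 1.48 with hsa-miR-205-5p, 2.88 and 2.90 with hsa-miR-214-3p, and 2.85 and 3.01 in the control. Both hsa-miR-205-5p arrays stood below the other 4. It fell by 1.58 (SE 0.17, adjusted p = 0.00885, limma), or 2.98-fold, with hsa-miR-205-5p, and the difference with hsa-miR-214-3p was −0.04 (adjusted p = 0.911, limma). RARG, the retinoic acid receptor best known from skin, read 1.52 and 1.63 with hsa-miR-205-5p, 2.43 and 2.06 with hsa-miR-214-3p, and 2.62 and 2.70 in the control. It fell by 1.08 (SE 0.19, adjusted p = 0.0197, limma) with hsa-miR-205-5p, and its difference with hsa-miR-214-3p was −0.41 (adjusted p = 0.271, limma). The groups of RARG did not overlap, but the direct difference between the precursors, −0.67, was under 2-fold (adjusted p = 0.0449, limma).

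RXRA, the other RXR tested, differed from the control by 0.03 with hsa-miR-205-5p and by −0.26 with hsa-miR-214-3p. RARA, a retinoic acid receptor found in most tissues, differed by 0.68 and 0.51 at its brightest probe and by −0.06 and −0.26 at another, none of them called. The RXRB call against the control was lost without hsa-miR-205-5p replicate 2, at −1.70, and that between the precursors without either hsa-miR-214-3p array, at −1.55 and −1.52. The RARG call was lost without any 1 of the 4 precursor arrays, at −1.14 to −1.03.

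Of 15 retinoic acid response genes, 6 were tested. With hsa-miR-205-5p 2 rose, with hsa-miR-214-3p none was called, and between the precursors 1 was higher with hsa-miR-205-5p. ALDH1A3, which makes retinoic acid from retinal, rose by 1.26 (SE 0.22, adjusted p = 0.0208, limma). Its rise was as low as 0.61 under alternative settings, of which 5 of 15 lost the call. STRA6, a membrane receptor that takes up retinol, was above background only on the hsa-miR-205-5p arrays. It was kept through that group alone, and is 1 of the 2 genes counted as risen and the gene counted as higher. The bounds were at least 4.25-fold against the control and at least 3.26-fold against hsa-miR-214-3p, and under normexp the log2 differences were only 0.61 and 0.51, without a call.

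PPARD rose with hsa-miR-205-5p, whereas PPARG differed between the precursors without a call against the control. PPARD, a fatty acid receptor expressed in most tissues, read 5.50 and 5.46 with hsa-miR-205-5p, 4.47 and 4.44 with hsa-miR-214-3p, and 4.48 and 3.96 in the control. Both hsa-miR-205-5p arrays stood above the other 4, whose groups overlapped. The rise was 1.26 (SE 0.21, adjusted p = 0.0188, limma) against the control and 1.02 (SE 0.21, adjusted p = 0.0214, limma) against hsa-miR-214-3p. Scaling the arrays to their median instead reduced these to 0.88 and 0.80, under 2-fold. Without any 1 of the 4 precursor arrays the PPARD calls were lost, at 1.25 to 1.28 against the control and at 1.00 to 1.04 between the precursors.

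PPARG, the receptor that drives fat cell differentiation, read 1.94 and 1.95 with hsa-miR-205-5p, 3.76 and 3.71 with hsa-miR-214-3p, and 2.45 and 3.57 in the control. The precursor groups were far apart, and the control arrays lay between them and 1.12 apart from each other. The difference between the precursors was −1.79 (SE 0.37, adjusted p = 0.0203, limma), while the differences from the control were −1.06 (adjusted p = 0.101, limma) with hsa-miR-205-5p and 0.73 (adjusted p = 0.308, limma) with hsa-miR-214-3p. A second PPARG probe above background gave 0.12, 0.42 and −0.31 for the same 3 differences, none called. The call of the brighter probe was lost without any 1 of the 4 precursor arrays, at −1.81 to −1.77, and in the mean of both probes, at −1.05.

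PPARA, the fatty acid receptor of liver and muscle, differed by 0.04 and 0.88 from the control, and by −0.84 between the precursors (adjusted p = 0.0487, limma), under 2-fold. The thyroid hormone receptor THRA differed by −0.75 with hsa-miR-205-5p (adjusted p = 0.0775, limma) and by −0.92 with hsa-miR-214-3p (adjusted p = 0.102, limma). A dimmer THRA probe, above background on both control arrays and on no hsa-miR-205-5p array, was at least 2.73-fold lower with hsa-miR-205-5p, and was kept only through the control. THRA lies on the plus strand and NR1D1 on the minus strand of the same locus, and the annotated genes overlap.

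Of 12 PPAR response genes, 9 were tested, and 3 fell with hsa-miR-205-5p, 0 with hsa-miR-214-3p, and 2 were lower with hsa-miR-205-5p than with hsa-miR-214-3p. None was called higher in any comparison. Of all genes, 7.98% were called lower and 4.78% higher with hsa-miR-205-5p. PDK4, a kinase that restrains pyruvate oxidation, fell by 1.35 (SE 0.31, adjusted p = 0.0387, limma) with hsa-miR-205-5p. Its difference was −1.68 to −1.03 without 1 array and as small as −0.46 under alternative settings, of which 5 of 15 lost the call. SLC25A20, the carnitine carrier of mitochondria, fell by 1.57 (SE 0.37, adjusted p = 0.0402, limma), with control arrays at 1.20 and 2.31. Without 1 array the difference of SLC25A20 was −2.12 to −1.01, and 5 of 15 alternative settings lost its call. HADHA, a subunit of the enzyme complex of fatty acid oxidation, was below background on both hsa-miR-205-5p arrays and at least 4.36-fold lower than in the control (adjusted p = 0.008, limma), while normexp gave a log2 difference of −0.85, under 2-fold. Of 7 thyroid hormone response genes 2 were tested and none was called.

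NR1D1 was called in all 3 comparisons and moved in opposite directions with the precursors. NR1D1, also named REV-ERBα, is a haem-binding repressor of the circadian clock and represses BMAL1. It read 0.63 and 0.66 with hsa-miR-205-5p, 2.71 and 2.93 with hsa-miR-214-3p, and 1.78 and 1.76 in the control. The groups did not overlap, and the control arrays stood between the precursors. NR1D1 fell by 1.12 (SE 0.16, adjusted p = 0.0135, limma) with hsa-miR-205-5p and rose by 1.05 (SE 0.16, adjusted p = 0.0419, limma) with hsa-miR-214-3p. Of 15 alternative settings, 4 lost the call of the fall and 6 that of the rise, with differences as small as −0.84 and 0.74. The direct difference was −2.17 (SE 0.16, adjusted p = 0.00383, limma), or 4.51-fold. That call held under every alternative setting and without each array in turn, at −2.40 to −1.58. The calls against the control were both lost without any 1 of the 4 precursor arrays, at −1.14 to −1.11 for hsa-miR-205-5p and at 0.94 to 1.16 for hsa-miR-214-3p, and that for hsa-miR-214-3p also without control replicate 1, at 1.06.

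Of 14 other clock genes of the REV-ERB and ROR loop, 10 were tested. With hsa-miR-205-5p 1 fell, with hsa-miR-214-3p 1 fell and 1 rose, and between the precursors 1 was lower and 1 higher with hsa-miR-205-5p. CIART, a repressor of the CLOCK and BMAL1 complex, read −4.09 and −3.75 with hsa-miR-205-5p, −1.04 and −1.05 with hsa-miR-214-3p, and −2.72 and −2.35 in the control. It was above background on both hsa-miR-214-3p arrays, 1 control array and no hsa-miR-205-5p array, so the order of the control and hsa-miR-205-5p was not measured. CIART is counted in all 3 comparisons of this list, but it was kept only through hsa-miR-214-3p. Its bound was at least 1.49-fold lower with hsa-miR-205-5p than with hsa-miR-214-3p and did not exceed 1 against the control, and under normexp the difference of hsa-miR-214-3p from the control was 0.37, without a call.

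PER1, a core clock repressor that was counted with the glucocorticoid response genes, read 0.42 and 0.21 with hsa-miR-205-5p, 1.84 and 1.95 with hsa-miR-214-3p, and 1.54 and 1.49 in the control. It fell by 1.20 (SE 0.16, adjusted p = 0.0122, limma) with hsa-miR-205-5p, and its difference with hsa-miR-214-3p was 0.38 (adjusted p = 0.245, limma). With hsa-miR-205-5p the difference of PER1 was as small as −0.62 under alternative settings, of which 4 of 15 lost the call. BMAL1, the activator that NR1D1 represses, read 0.89 and 0.56 with hsa-miR-205-5p, −1.02 and −1.16 with hsa-miR-214-3p, and 0.01 and −0.28 in the control. Its groups stood in the opposite order to those of NR1D1. BMAL1 was 1.81 higher (SE 0.20, adjusted p = 0.00504, limma) with hsa-miR-205-5p than with hsa-miR-214-3p, while its differences from the control, 0.86 (adjusted p = 0.0406, limma) and −0.96 (adjusted p = 0.0747, limma), gave no call. Between the precursors the difference of BMAL1 was as small as 0.70 under alternative settings, of which 1 of 15 lost the call. PER2, a partner of PER1 in that repressor, read −0.54 and −0.98, −1.46 and −2.14, and 0.56 and 0.12 on the arrays in the same order. It fell by 2.14 on the log2 scale (SE 0.32, adjusted p = 0.0405, limma) with hsa-miR-214-3p, where 1 array was above background. The call was kept only without control replicate 2 among the arrays left out in turn, and the mean of its 2 kept probes gave no call.

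**Figure D3:**
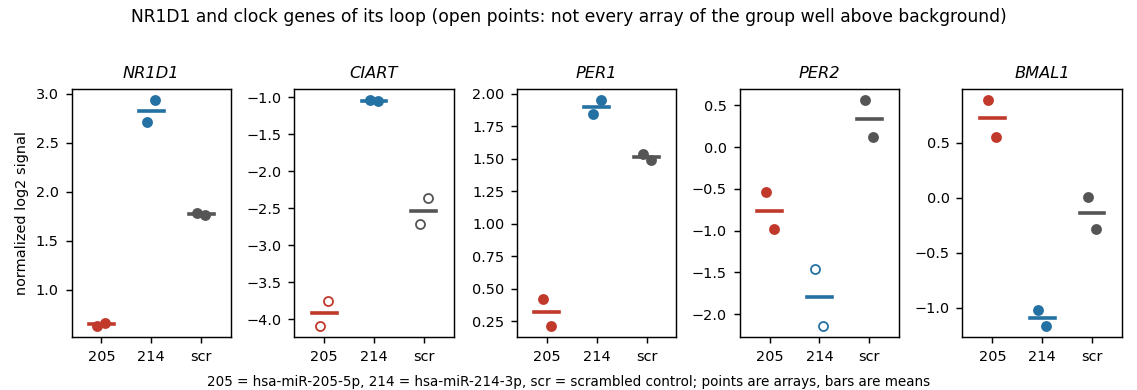
Normalized log2 signal of NR1D1 and of 4 clock genes, with each point an array, each bar a group mean and open points for groups in which not every array was well above background; panels have their own vertical scales. NR1D1 and PER1 are lowest with hsa-miR-205-5p and highest with hsa-miR-214-3p, CIART is measured on both arrays only with hsa-miR-214-3p, BMAL1 shows the reverse order, and PER2 is highest in the control.

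Promoter stretches of 3 of these genes are printed because CLOCK with BMAL1 binds the E-box CACGTG, and REV-ERB and ROR receptors bind sites built on AGGTCA. Each is from the RefSeq promoter table (GRCh38.p14, 250 bases before to 50 after the start of the gene), on the strand of the gene, with the motif in capitals.
CIART (chr1:150282413-150282442, plus strand): agtaactagagtCACGTGttaccggcgaca
CIART (chr1:150282478-150282507, plus strand): ggaggCACGTGccgggccgCACGTGtctgg
PER1 (chr17:8152560-8152589, minus strand): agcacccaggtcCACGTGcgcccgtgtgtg
BMAL1 (chr11:13277809-13277838, plus strand): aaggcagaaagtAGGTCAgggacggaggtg
The motifs of CIART began at −129, −71 and −57 from the start, the E-box of PER1 at −173 and the AGGTCA of BMAL1 at 32. CACGTG, which reads the same on both strands, was found in 7.26% of the 35116 promoters in the table, and AGGTCA, searched on both strands, in 13.8%. The windows of NR1D1 and PER2 held neither motif. A match describes these letters and is no evidence of binding, not every match found is printed, and the motifs do not overlap each other in the windows shown.

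The LXR genes NR1H2 and NR1H3, receptors for oxysterols, were not called. NR1H3 differed by 0.69 with hsa-miR-205-5p (adjusted p = 0.0478, limma) and by −0.26 with hsa-miR-214-3p, and by 0.95 between the precursors (adjusted p = 0.0146, limma), all under 2-fold. NR1H2 differed by −0.56 and −0.22 from the control. All 7 listed LXR response genes were tested, of which 1 fell with hsa-miR-205-5p, 0 were called with hsa-miR-214-3p and 1 was higher with hsa-miR-205-5p than with hsa-miR-214-3p. ABCG1, a cholesterol exporter, was at least 1.67-fold lower with hsa-miR-205-5p (adjusted p = 0.0234, limma), with no hsa-miR-205-5p array above background. Under alternative settings its log2 difference was as small as −0.18, so the bound holds only for the processing reported. LPCAT3, which remodels phospholipids, was 1.13 higher with hsa-miR-205-5p than with hsa-miR-214-3p (adjusted p = 0.0175, limma).

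Of the orphan receptors of the NR2 and NR6 subfamilies, NR2F1 rose with hsa-miR-214-3p and NR2F6 differed between the precursors. NR2F1, or COUP-TFI, a regulator of neural development, read 2.55 and 2.28 with hsa-miR-205-5p, 2.87 and 2.79 with hsa-miR-214-3p, and 1.81 and 1.59 in the control. Both control arrays stood below the 4 precursor arrays. The difference was 1.13 (SE 0.18, adjusted p = 0.0451, limma) with hsa-miR-214-3p and 0.71 (SE 0.18, adjusted p = 0.0487, limma) with hsa-miR-205-5p, the latter under 2-fold, and −0.42 between the precursors (adjusted p = 0.131, limma). NR2F1 lost its call without any 1 of the arrays other than control replicate 2, at 1.09 to 1.24.

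NR2F6, a receptor of the same subfamily, read 6.25 and 6.28 with hsa-miR-205-5p, 5.44 and 4.76 with hsa-miR-214-3p, and 5.87 and 5.44 in the control. Both hsa-miR-205-5p arrays stood above the others. Of the rest, 1 hsa-miR-214-3p array was level with the lower control array and the other lay below it. Its difference between the precursors was 1.16 (SE 0.28, adjusted p = 0.0318, limma), and the call was lost without any 1 of the 4 precursor arrays, at 0.82 to 1.50. NR2F2, or COUP-TFII, differed by 0.87 with hsa-miR-205-5p (adjusted p = 0.0343, limma), under 2-fold, and by 0.32 with hsa-miR-214-3p. NR2C2 differed by 0.42 and 0.39, and NR6A1, the germ cell nuclear factor, by −0.28 and −0.00.

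No steroid receptor was called at its brightest probe. The glucocorticoid receptor NR3C1 read 6.79 and 6.78 with hsa-miR-205-5p, 6.36 and 6.19 with hsa-miR-214-3p, and 6.74 and 6.19 in the control, differing by 0.32 and −0.19 from the control. The mineralocorticoid receptor NR3C2, above background on both control arrays and on 1 array of each precursor, differed by 0.15 and −0.41. ESRRA, an oestrogen-related orphan receptor of energy metabolism, differed by −0.27 and −0.50 at its brightest probe. A second ESRRA probe differed by −0.45 and −1.02 (adjusted p = 0.234 and 0.0942, limma), without a call.

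The glucocorticoid response list had 10 genes, of which 8 were tested. With hsa-miR-205-5p 1 fell and 1 rose, with hsa-miR-214-3p 1 fell, and between the precursors 2 were lower and 1 higher. SGK1, a kinase that controls sodium transport, rose by 1.25 (SE 0.16, adjusted p = 0.0108, limma) with hsa-miR-205-5p, and PER1 fell as given above. ERRFI1, a feedback inhibitor of the EGF receptor, fell by 1.65 (SE 0.15, adjusted p = 0.0258, limma) with hsa-miR-214-3p and was 1.15 higher with hsa-miR-205-5p than with hsa-miR-214-3p (adjusted p = 0.00707, limma). CRISPLD2, a secreted protein, was at least 2.53-fold lower with hsa-miR-205-5p than with hsa-miR-214-3p (adjusted p = 0.00722, limma), with no hsa-miR-205-5p array above background. Its log2 difference was as small as −0.42 under alternative settings, so this bound too holds only for the processing reported.

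Of 9 oestrogen and progesterone response genes, 5 were tested, in cells whose ESR1, ESR2 and PGR probes gave no signal above background. TFF1, a secreted trefoil peptide, read 3.94 and 3.95 with hsa-miR-205-5p, 5.74 and 5.89 with hsa-miR-214-3p, and 6.09 and 6.25 in the control. Its hsa-miR-205-5p arrays stood below the others, by 2.22 against the control (log2 difference −2.22, SE 0.16, adjusted p = 0.008, limma). IGFBP4, an inhibitor of insulin-like growth factors, fell by 1.42 (SE 0.16, adjusted p = 0.00914, limma) with hsa-miR-205-5p, while the transcription factor MYB rose by 1.02 (SE 0.25, adjusted p = 0.0429, limma). The rise of MYB was as low as 0.43 under alternative settings, of which 7 of 15 lost the call. TFF1, IGFBP4 and MYB were called in the same directions between the precursors, and none of them with hsa-miR-214-3p against the control.

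The NR4A genes encode immediate-early receptors without a classical ligand. NR4A3 read −0.20 and −0.40 with hsa-miR-205-5p, −1.08 and −1.67 with hsa-miR-214-3p, and −0.22 and −0.56 in the control. The hsa-miR-214-3p arrays stood below the other 4, whose groups overlapped. NR4A3 differed by 1.07 (SE 0.26, adjusted p = 0.0314, limma) between the precursors, by 0.09 from the control with hsa-miR-205-5p, and by −0.98 with hsa-miR-214-3p (adjusted p = 0.111, limma). Its call was lost without any 1 of the 4 precursor arrays, at 0.78 to 1.37, and normexp background correction reduced the difference to 0.35. NR4A2 differed by −0.06 and −0.07, with its control arrays at −0.73 and 0.95.

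Among the coregulators, the coactivator NCOA1 fell 3.65-fold with hsa-miR-205-5p. NCOA1, or SRC-1, binds liganded receptors and recruits acetyltransferases. It read −0.79 and −1.22 with hsa-miR-205-5p, 1.50 and 1.60 with hsa-miR-214-3p, and 0.39 and 1.33 in the control. Both hsa-miR-205-5p arrays stood below the other 4, and the control arrays lay 0.94 apart. The log2 difference was −1.87 (SE 0.35, adjusted p = 0.0229, limma) from the control and −2.56 (SE 0.35, adjusted p = 0.00718, limma) from hsa-miR-214-3p, with 0.69 (adjusted p = 0.305, limma) for hsa-miR-214-3p against the control. The call against the control was lost under normexp, at −0.85, and without any 1 of the 4 precursor arrays, at −2.08 to −1.65, and that between the precursors without either hsa-miR-214-3p array, at −2.60 and −2.51.

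NCOA3, a related coactivator amplified in some breast cancers, was above background on both hsa-miR-214-3p arrays and 1 control array. It read −3.66 and −3.41 with hsa-miR-205-5p, −0.64 and −0.83 with hsa-miR-214-3p, and −3.71 and 0.30 in the control. The control arrays lay 4.01 apart, so its difference from the control of 0.97 with hsa-miR-214-3p (adjusted p = 0.68, limma) was within the spread, and hsa-miR-205-5p, with neither array above background, gave no call either (adjusted p = 0.322, limma). Between the precursors the groups did not overlap and NCOA3 was at least 1.84-fold lower with hsa-miR-205-5p, without a call (adjusted p = 0.133, limma). Control replicate 1 was the lower by more than 1 in 4 members, PPARG, NR4A2, NCOA3 and the corepressor NRIP1, and the part of that array in their results was not tested. NRIP1 differed by 0.80 (adjusted p = 0.286, limma) and 0.17. The corepressor NCOR1 differed by 0.13 and −0.10 at its brightest probe.

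Of 30 other coregulators, 27 were tested, and 2 fell and 1 rose with hsa-miR-205-5p, while 0 were called with hsa-miR-214-3p. Between the precursors 4 were lower and 1 higher with hsa-miR-205-5p. CARM1, an arginine methyltransferase that acts with the NCOA proteins, rose by 1.02 (SE 0.19, adjusted p = 0.0240, limma). Its rise was 0.82 to 1.23 without 1 array and as low as 0.63 under alternative settings, of which 8 of 15 lost the call. KDM1A, a histone lysine demethylase, read −1.39 and −1.52 with hsa-miR-205-5p, 1.89 and 1.84 with hsa-miR-214-3p, and 0.78 and 1.74 in the control, a difference of −2.71 (SE 0.33, adjusted p = 0.00997, limma) with hsa-miR-205-5p. MED1, the Mediator subunit that contacts VDR and other receptors, differed by −2.23 (SE 0.52, adjusted p = 0.0389, limma), with control arrays at 0.09 and 1.34. Without 1 array its difference was −2.86 to −1.61, with a call only without control replicate 1, and under normexp it was −0.87 without a call. Both were above background on 1 hsa-miR-205-5p array. Between the precursors the deacetylase HDAC1 was 1.06 higher (adjusted p = 0.00771, limma) with hsa-miR-205-5p. The coactivators NCOA5, at −1.20 (adjusted p = 0.00727, limma), and PPARGC1B, at −1.43 (adjusted p = 0.00947, limma), were lower. Of 17 other nuclear receptors only 1 was tested, and it was not called.

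For 7 members more than 1 probe was kept, and their probes disagreed in several cases. A second NCOR1 probe read −1.70 and −1.08 with hsa-miR-205-5p, 0.81 and 0.74 with hsa-miR-214-3p, and −0.06 and 0.81 in the control. It was above background on all arrays but 1 of hsa-miR-205-5p, and fell by 1.76 (SE 0.35, adjusted p = 0.0276, limma) with hsa-miR-205-5p, where the brightest probe differed by 0.13. The second NR3C1 probe differed by −1.24 with hsa-miR-214-3p (adjusted p = 0.0873, limma) and by 1.14 between the precursors (adjusted p = 0.0343, limma), where the brightest gave −0.19 and 0.51. The second NRIP1 probe was 1.04 higher with hsa-miR-205-5p than with hsa-miR-214-3p (adjusted p = 0.0327, limma), where the brightest gave 0.63 without a call. The values of ESRRA, NCOR1, NR3C1, NRIP1, PPARG, RARA and THRA therefore hold for the probe named, and 16 members had a single probe on the array.

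**Figure D4:**
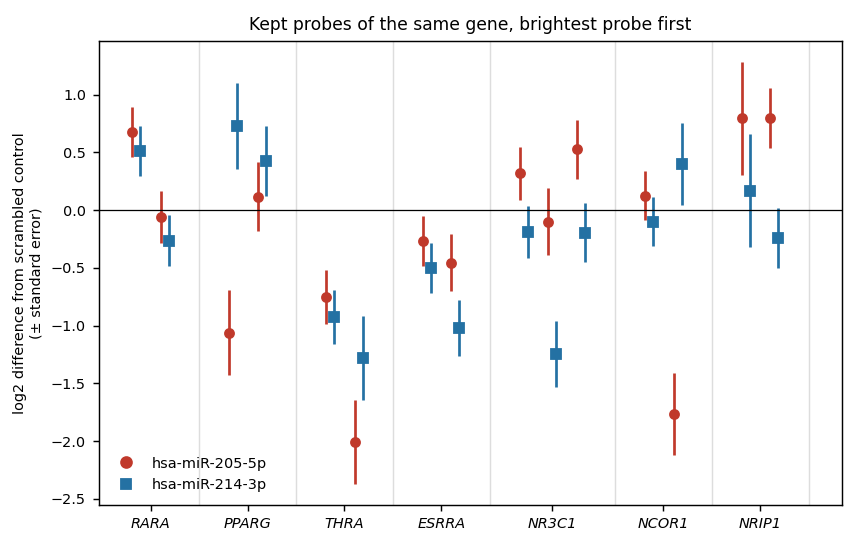
Log2 differences from the scrambled control of every kept probe of the 7 genes with more than 1, brightest probe first within each gene, with limma's standard errors as bars; circles are hsa-miR-205-5p and squares hsa-miR-214-3p. With hsa-miR-205-5p the probes of NCOR1 lie at 0.13 and −1.76, those of PPARG at −1.06 and 0.12, and the lower THRA point is a reading below background, for which only the bound in the text holds.

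The counts rested on few arrays. With hsa-miR-205-5p, 1 member was called without hsa-miR-205-5p replicate 1, 0 without replicate 2, 1 without either hsa-miR-214-3p array, and 8 and 6 without control replicates 1 and 2. With hsa-miR-214-3p, 0 were called without any 1 of the arrays other than control replicate 2, and 8 without that array. Every call of a pathway gene against the control was lost without at least 1 array. Those of TFF1, IGFBP4, SGK1, HADHA, KDM1A and CYP27B1 were lost only without hsa-miR-205-5p replicate 2, and that of ERRFI1 was kept only without control replicate 2, with differences of −1.74 to −1.57. Between the precursors, the calls of IGFBP3, G0S2, TFF1, KDM1A and HADHA held without each array. That of CIART is no support for a difference, since CIART was kept only through hsa-miR-214-3p. Of the members, 4 were called between the precursors without either hsa-miR-205-5p array, 2 without either hsa-miR-214-3p array and 9 without either control array. Normexp background correction ended 37 of the 57 calls of pathway genes and of members other than VDR. Among the members called against the control, it gave VDR −0.54 and NR2F1 0.78 with hsa-miR-214-3p, PPARD 0.95 with hsa-miR-205-5p, and NR1D1 −0.84 with hsa-miR-205-5p and 0.74 with hsa-miR-214-3p. Scaling to the median moved the median of all genes by −0.39, −0.17 and −0.22 in the 3 comparisons. Under it 6 members were lower and 0 higher with hsa-miR-205-5p, and the lower share of all called genes rose from 62.6% to 89.8%.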

How the data were processed

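RNA of 6 samples was hybridised to Agilent SurePrint G3 arrays in 1 colour (Cy3). The authors extracted signals with Agilent Feature Extraction 11.0, as the submitters' processing notes name it, and deposited for each spot a processed signal, which is a background-subtracted intensity on a linear scale, with flags and median values of signal and background. A second deposited table holds these arrays as log2 values. Its columns held the same sorted values to within 1e-05 (quantile normalization), had medians near 3.49 over the probes analysed here and correlated at 0.997 or more with the logged processed signal of their own array. The study's methods name GeneSpring 13.0, p under 0.05 and 2-fold.

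Control and outlier spots (245 to 463 an array) were left out, spots of a probe were averaged, log2 was taken and the array's 75th percentile (35.1 to 58.0) was subtracted. Of 50599 probes, 18468 were kept as well above background on both arrays of a group. limma 3.58.1 (lmFit, eBayes; R 4.3.3) was fitted to the 6 arrays together, and p-values were adjusted by Benjamini-Hochberg over the kept probes. The fit was checked on simulated arrays. A gene was represented by its brightest kept probe. Symbols came from the RefSeq table (GRCh38.p14) by transcript, which named 30275 probes; the array design uses another build, so no array coordinates are given. The fitted alternatives were the background correction (normexp with an offset of 50 on the median signal), the scaling, the probe filter, the arrays and spread used, the replicate block, the methods' t-test, the call limits, the probe summary and leaving out each array. Genes named in full are VDR, CYP24A1, every member called in a comparison, and of each pathway list at most 4 called genes a comparison, the largest by log2 difference among those above background on all arrays compared. Some called pathway genes that were not above background on all arrays compared were named outside this rule, after their values were seen. The members and gene lists were chosen with earlier results of these data known.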

Additional observations from a re-analysis of the deposited data

Results flagged for a closer look

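For 8 members the direct comparison of the precursors was called, so that the effects of both precursors against their shared control differed by a test of the difference itself. The log2 difference of hsa-miR-205-5p from hsa-miR-214-3p was 2.06 for VDR, 1.02 for PPARD, 1.16 for NR2F6 and 1.07 for NR4A3. It was −1.53 for RXRB, −1.79 for PPARG, −2.17 for NR1D1 and −2.56 for NCOA1. VDR and NR1D1 stood on opposite sides of the control with the precursors, on all arrays. NCOA1 and PPARG were lower than both control arrays with hsa-miR-205-5p and higher than both with hsa-miR-214-3p. Against the control NCOA1 was called only with hsa-miR-205-5p, and PPARG with neither precursor. Groups of 2 arrays are too small for a check of single outlying arrays.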

How the results depend on the processing

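No called difference changed direction under the alternatives run. Settings that change only the spread, the test or the call limits keep the difference itself, so they could not change its direction. The settings below gave called members, then called pathway genes, each for hsa-miR-205-5p, for hsa-miR-214-3p and between the precursors (as reported 5, 3 and 8, and 18, 4 and 21). Normexp gave 2, 0 and 5, and 4, 2 and 7, with VDR at −0.54 for hsa-miR-214-3p and 0.95 between the precursors, no longer called. No filter on dim probes gave 1, 0 and 4, and 3, 0 and 14. Only the 4 arrays of a comparison gave 1, 0 and 9, and 7, 0 and 22. The methods' t-test with Benjamini-Hochberg adjustment gave 0, 0 and 7, and 0, 0 and 14, and unadjusted 4, 3 and 7, and 14, 5 and 20. An unadjusted limma p under 0.05 gave 6, 3 and 8, and 19, 8 and 23. No limit on fold change gave 9, 3 and 11, and 28, 4 and 40, and called VDR for hsa-miR-205-5p at 0.84. Probes above background on all 6 arrays gave 11, 3 and 13 pathway genes of 76 tested, and scaling to the median gave 6, 1 and 6 members. The fall of VDR with hsa-miR-214-3p, −1.22, also lost its call without the filter, with 4 arrays, with the adjusted t-test, and in the authors' table at −1.09. Causes were not tested beyond what the settings themselves change.

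Replicate numbers did not pair the arrays (correlations of same-numbered deviations 0.11, 0.0081 and −0.05). With the replicate block 5, 0 and 8 members and 17, 0 and 21 pathway genes were called, and VDR at −1.22 for hsa-miR-214-3p was not.

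Leaving out each array in turn gave 0 to 8, 0 to 8 and 2 to 9 members and 0 to 20, 0 to 12 and 6 to 22 pathway genes, and VDR differences of 0.74 to 0.93, −1.32 to −1.13 and 1.98 to 2.14. Of the other settings of 57 results for single genes, 654 of 838 kept the call and 184 lost it, and without 1 array 181 of 342 kept it and 161 lost it. Among those other settings, an unadjusted p and no limit on fold change are looser than the call rule. They could lose no call, and each kept 57 of 57, so the kept share is no measure of stability. Under normexp 82.3% of called genes were lower with hsa-miR-205-5p (62.6% as reported) and 84.9% with hsa-miR-214-3p (65%), and under median scaling 86.3% with hsa-miR-214-3p and 73.8% between the precursors (55.2%). With 35.4% to 42.2% of spots above background, changes of dim genes such as CYP24A1 could not be measured.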
